A study of Mus musculus with 2 samples.

Results

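The 8 genes described here encode microRNAs (miRNAs) known from white blood cells: Mir142, Mir223, Mir155, Mir150, Mir146, Mir511, Mir147 and Mir146b. They were named from 1973 annotated miRNA genes and were chosen by measured values too, since their levels and the difference between the libraries were already known. Levels and ratios are therefore given as descriptions, and nothing is supported with them. The samples are 2 whole bladders of newborn mice (strain B6NCrl, postnatal day 0), untreated, 1 from pup 2 and 1 from pup 1 of the same pregnancy, with sex not collected. Small RNA of a size range below 30 nucleotides was sequenced from total RNA, as 1 library per pup. A level is a gene's count per 1000000 sense-strand gene counts of its library (CPM).

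miRNAs are cut from hairpin precursors, loaded into Argonaute proteins and pair with messenger RNAs mainly through their seed, which lowers the output of those messages. A small set of miRNAs is made largely by blood-forming cells. Within it miR-223 is typical of neutrophils and other myeloid cells, miR-142 of all white blood cell lineages, and miR-150 of mature lymphocytes. miR-155, miR-146 and miR-147 are known to be induced when immune cells are activated. In an organ such as the bladder, these cells are a minority among muscle, epithelium and connective tissue.

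The library of pup 2 held 3636650 sense-strand gene counts and that of pup 1 held 7460621, so pup 1 was measured 2.05 times as deeply. The labelled tissue was checked by lists of other cell types. The smooth muscle genes Mir143, Mir145a and Mir145b took 53.5% of counts in pup 2 and 53.8% in pup 1. All 7 epithelial genes (the miR-200 family, Mir205 and Mir203) were detected, with 1 CPM and 3 counts or more in each library. Mir143 and Mir145a were detected too, but Mir145b was not, with 2 counts in pup 2 and 4 in pup 1. Intervals are exact 95% intervals for the counting of reads alone, which without molecular identifiers are not independent molecules. With 1 library per pup, no difference between the pups has a replicate check. In whole tissue, fewer cells of a type and less RNA per cell cannot be told apart.

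The RefSeq table of the GRCm38.p6 assembly holds 13 mature sequences of these 8 genes, with 12 distinct seeds. The sequences of the genes whose levels are described are given 5′ to 3′, with the seed, bases 2 to 8, in capitals. They show that the printed seeds differ between the genes, except for those of Mir146 and Mir146b.
miR-142a-3p: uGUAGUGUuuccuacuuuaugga
miR-142a-5p: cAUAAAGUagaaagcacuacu
miR-223-3p: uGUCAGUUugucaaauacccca
miR-223-5p: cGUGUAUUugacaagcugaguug
miR-155-5p: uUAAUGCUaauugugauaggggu
miR-155-3p: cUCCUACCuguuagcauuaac
miR-150-3p: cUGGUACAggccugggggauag
miR-146a-5p: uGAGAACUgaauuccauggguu
miR-146b-5p: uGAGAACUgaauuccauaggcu
miR-511-3p: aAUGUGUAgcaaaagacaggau
miR-147-5p: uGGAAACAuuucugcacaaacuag

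The seed GAGAACU is shared by miR-146a-5p of Mir146 and miR-146b-5p of Mir146b. Counted from the 5′ end of miR-146a-5p, the pair is identical over the first 17 of 22 bases and differs by G18A and U21C. Each of the other 11 seeds of the set occurs in no other mature sequence among the 1738 in the table. The longest run that a mature sequence of Mir223, Mir142, Mir155, Mir150, Mir147 or Mir511 shares with the hairpin of another gene, on either strand and leaving out Mir142b, is 13 bases, in miR-142a-5p. For Mir150, Mir147 and Mir511 the statements on seeds and shared runs rest on the arm printed alone and do not cover the other arm. The roles named for these genes are not assigned to the printed arm. The counts are given per hairpin gene, so the arm from which the reads came is not known here.

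The genes lie apart, on chromosomes 2, 7, 11, 16, 19 and X (GRCm38, GENCODE M21). Mir223 (ENSMUSG00000076066, chrX:96242817-96242926, plus strand) lies in an exon of the non-coding gene F630028O10Rik. Mir155 (ENSMUSG00000065397, chr16:84714140-84714204, plus strand) lies in an exon of the non-coding gene Mir155hg. Mir511 (ENSMUSG00000077897, chr2:14261003-14261081, plus strand) lies in an intron of Mrc1, which encodes the mannose receptor of macrophages. Mir147 (ENSMUSG00000076309, chr2:122640803-122640881, plus strand) lies in a UTR of the protein-coding gene AA467197. Mir146b (ENSMUSG00000070127, chr19:46342762-46342870, plus strand) lies in an intron of Mfsd13a. Mir150 (ENSMUSG00000065495, chr7:45121757-45121821, plus strand) and Mir146 (ENSMUSG00000065601, chr11:43374397-43374461, minus strand) overlap no other annotated gene. Mir511 and Mir147 are on the same chromosome, and so are Mir142 and Mir146, at a distance.

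Mir142 is the gene whose reads need the most care. It lies at chr11:87756864-87756927 on the plus strand, in an intron of Mir142hg, a non-coding gene, and has no row of its own here. Its hairpin, printed with both mature arms in capitals, is the exact reverse complement of part of the Mir142b hairpin (ENSMUSG00000065420, chr11:87756841-87756955, minus strand), whose row does exist.
Mir142 hairpin: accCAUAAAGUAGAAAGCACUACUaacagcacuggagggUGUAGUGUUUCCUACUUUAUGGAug
miR-142b, seed in capitals: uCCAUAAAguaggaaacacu
The arms are bases 4 to 24 (miR-142a-5p) and bases 40 to 62 (miR-142a-3p). The 20 bases of miR-142b are the reverse complement of part of miR-142a-3p. At the Mir142b row, 0 counts fell on the sense strand in either library. A limit of 3 counts is 0.825 CPM in pup 2 against 0.402 CPM in pup 1. On the opposite strand, that of Mir142, there were 6605 counts in pup 2 and 5962 in pup 1. These are the counts used here for Mir142. For the other 7 genes the sense strand was used. They had no opposite-strand count, except Mir150 with 1 count in each library.

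Mir142, the miRNA of all white blood cell lineages, had the highest level of the set, with 1816 CPM in pup 2 against 799.1 CPM in pup 1. The intervals, 1773 to 1861 CPM in pup 2 and 779.0 to 819.7 CPM in pup 1, lie far apart. The mean was 1308 ± 719.2 CPM (SD, n = 2, as for all means here), which ranks it 57 of 1974 rows, those of the sense strand and Mir142. Other loci enter this rank with sense counts alone. Some of them had more opposite-strand counts than Mir142, such as Gm25301 with 21185 CPM in pup 2 and 21542 CPM in pup 1. Among the ranked rows, Mir142 stood between Mir106b at 1385 CPM and Mir484 at 1295 CPM in mean level. Mir20a and Mir467d were next to them on either side.

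Mir223, the myeloid miRNA, had 1274 CPM in pup 2 against 396.2 CPM in pup 1. It ranked 60 in pup 2 and 101 in pup 1, with a mean of 835.1 ± 620.7 CPM. Its spread between the pups was 74.3% of its mean, against 55.0% for Mir142.

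Mir155, next in level, had far fewer counts, with 18.0 Mir223 counts for each of its own in pup 2 and 5.12 in pup 1. Mir155, which in mice is needed for full responses of B cells, T cells and dendritic cells, had 70.7 CPM in pup 2 against 77.3 CPM in pup 1. Mir150, a lymphocyte miRNA that represses the transcription factor Myb, had 31.9 CPM in pup 2 against 29.1 CPM in pup 1. For each of these genes the intervals of the pups overlapped, and the SD was 6.37% of the mean for Mir155 and 6.52% for Mir150.

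Mir146 encodes miR-146a, an inducible brake on Toll-like receptor signalling through Traf6 and Irak1. Its level was 23.6 CPM in pup 2, from 86 counts, against 19.3 CPM in pup 1, from 144 counts. Mir511, from the intron of the macrophage gene Mrc1, had 14.3 CPM in pup 2, from 52 counts, against 9.52 CPM in pup 1, from 71 counts. For Mir146 and Mir511 alike the intervals of the pups overlapped, with pup 2 higher.

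Mir147, induced by Toll-like receptor signalling in mouse macrophages, had 11.0 CPM in pup 2 against 2.68 CPM in pup 1. These values rest on 40 counts in pup 2 and 20 in pup 1, and the intervals, 7.86 to 14.98 CPM in pup 2 and 1.64 to 4.14 CPM in pup 1, do not overlap. Mir146b, the seed partner of Mir146, had 0 counts in pup 2 and 3 counts in pup 1 (0.402 CPM). It was not detected by the rule used here, and the exact interval of its 0 counts in pup 2 reaches 1.01 CPM. Its neighbours in mean level are all near 0: Mir7670 and Mir7675 above, Gm22133 and Gm23193 below. Counts of the pair that shares the seed GAGAACU thus fell almost wholly on Mir146. A read that ends before base 18 would match both genes, and reads mapped to several places were not counted at genes.

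The order of the levels was the same in the pups: Mir142, Mir223, Mir155, Mir150, Mir146, Mir511, Mir147, Mir146b. These are counts of whole short RNAs, 1 read each, so they were not divided by length. Ligation can favour some miRNAs over others, and so levels of different genes compare reads, not molecules. The means of Mir142 and Mir223 differ by less than their SDs over the pups. Those SDs hold the difference between the libraries, where both genes were higher in pup 2. Compared within each library, Mir142 was higher. For each of its counts there were 0.701 Mir223 counts in pup 2 (interval 0.675 to 0.728) and 0.496 in pup 1 (0.474 to 0.518). The means of Mir511 and Mir147 are not apart beyond their SDs either. Within each library Mir511 was higher than Mir147, with intervals that overlap in pup 2 and lie apart in pup 1. Mir155, Mir150 and Mir146 are each apart from their neighbours by more than the SDs.

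**Figure D1:**
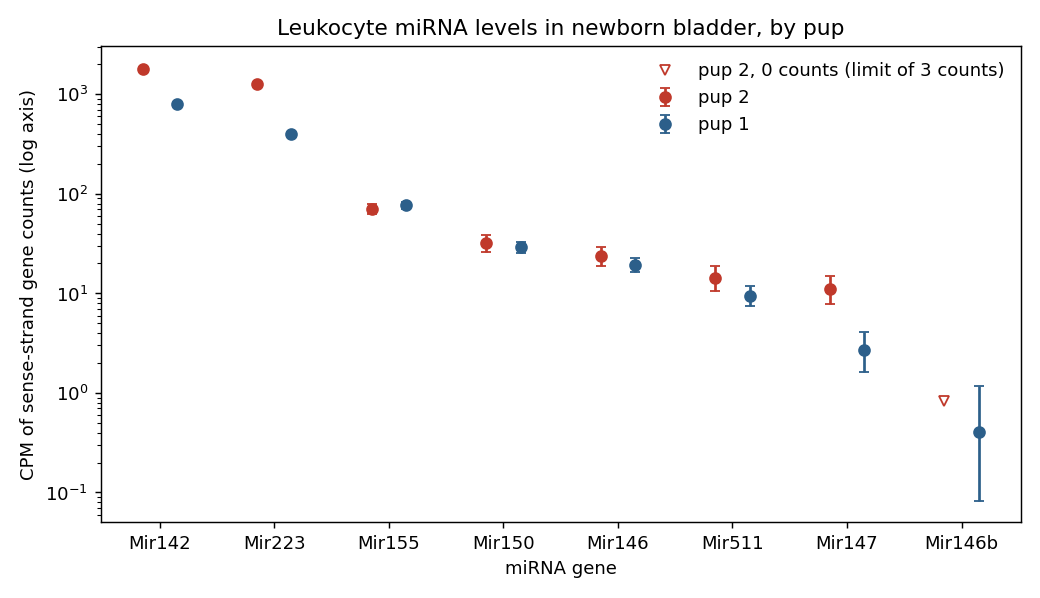
Level of each gene in CPM (log axis), with pup 2 in red left of pup 1 in blue. Bars are exact 95% counting intervals, and the open triangle marks 0 counts, drawn at a limit of 3 counts. Mir142, Mir223 and Mir147 are clearly higher in pup 2, while the bars of Mir155, Mir150, Mir146 and Mir511 overlap.

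The comparison of the littermates was made for every gene with at least 10 counts summed over the libraries, 363 in all, after TMM scaling of the library sizes, which moved them by under 1%. Of the 8 genes, 7 reached that minimum and Mir146b did not. Mir142, Mir223 and Mir147 were at least 2-fold higher in pup 2, and none was 2-fold lower. Over all genes, 8.54% were at least 2-fold apart, 4.13% higher in pup 2 and 4.41% lower. Since the genes were chosen with this contrast known, nothing is read from their count beside these shares.

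The ratio of pup 2 over pup 1 was 4.17 for Mir147 (interval 2.38 to 7.53), 3.27 for Mir223 (3.12 to 3.42) and 2.31 for Mir142 (2.23 to 2.39). On the log2 scale, with a prior count of 0.5, the ratios were 2.04 for Mir147, 1.71 for Mir223 and 1.21 for Mir142. They ranked 2, 3 and 10 from the top of the 363 genes. The counting intervals of Mir223 and Mir142 do not overlap. The interval of Mir147 holds the ratio of Mir223 and overlaps the interval of Mir142.

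Mir511 followed at a ratio of 1.53 (interval 1.05 to 2.22). Its interval lies above 1 by a small margin. The ratio was 1.25 for Mir146 (0.942 to 1.64), 1.11 for Mir150 (0.882 to 1.40) and 0.929 for Mir155 (0.799 to 1.08). These 3 intervals hold 1, so a difference was not detectable at this depth, and they leave room for one up to the bounds given. By sign alone, 6 of the 7 genes were higher in pup 2, and 56.5% of all genes tested were. The median log2 ratio was 0.61 for the 7 genes and 0.04 for all genes tested.

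**Figure D2:**
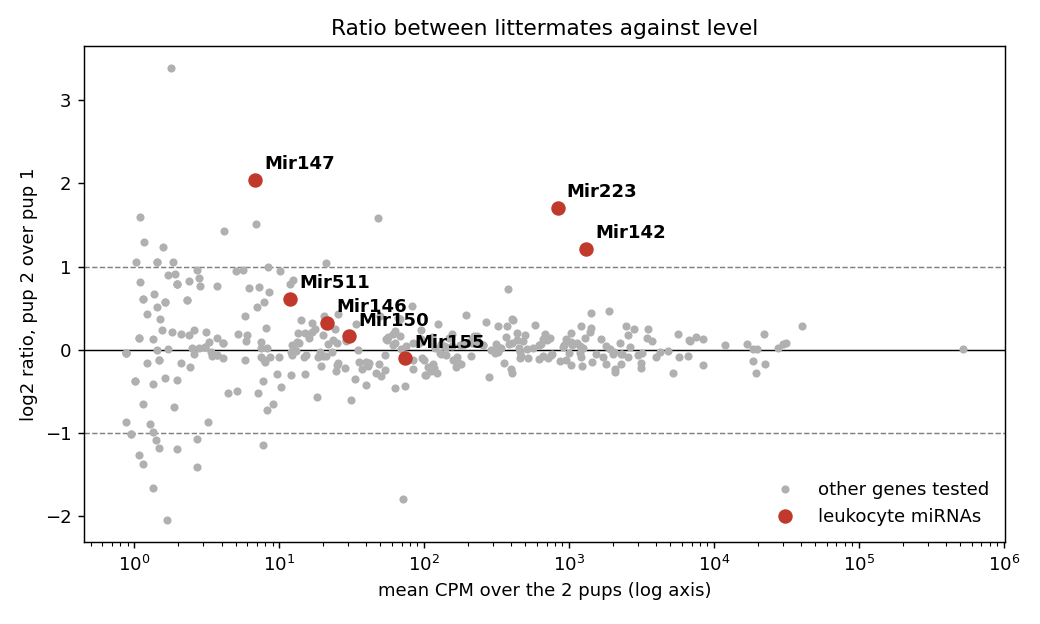
Log2 ratio of pup 2 over pup 1 against mean CPM (log axis) for the 363 genes tested, grey, with the 7 leukocyte miRNAs in red; dashed lines mark 2-fold. Mir223 (1.71) and Mir142 (1.21) stand above all grey genes of like level, whereas Mir147 lies where low counts widen the cloud.

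Genes of like level, within 2-fold of a gene's mean CPM and outside the set described here, show the usual spread of these libraries. For Mir142 there were 48 such genes, with log2 ratios between -0.27 and 0.47, the highest being Mir16-1. For Mir223 there were 47, between -0.20 and 0.45, the highest being Mir93. No gene of like level outside the set had a ratio above that of Mir142 or Mir223. The 52 genes of like level around Mir147 were wider, between -1.14 and 1.51 with Mir499 the highest, and none exceeded Mir147 at 2.04. For Mir511, 9 of 58 genes of like level had a higher ratio, and for Mir155 32 of 54 did. At the level of Mir146, 8 of 52 lay above it, and at that of Mir150, 13 of 48. The genes of the set were chosen with their ratios known, so their place among genes of like level is a description, not a test.

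At 100 counts or more summed over the libraries, 5 of 249 genes were at least 2-fold apart. They were Mir223, Mir375, Mir142 and Mir215, higher in pup 2, and Mir122, lower in pup 2. Mir223 and Mir142 are by far the deepest of these, since the other 3 had at most 834 counts in a library. Log2 ratios were also compared over the 236 genes that had 50 counts or more in both libraries. Outside the set described here, those nearest to Mir223 were Mir375 (1.59), Mir215 (1.05) and Mir20b (0.83). Within the set, Mir142 (1.21) was nearer to Mir223 than Mir215 and Mir20b were. Mir375, Mir215 and Mir20b were also the nearest to Mir142 outside the set. Likeness here means 1 ratio from 2 libraries.

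Because Mir142 was counted on the opposite strand, it was also set against the other loci counted there. Of 11 loci with at least 100 opposite-strand counts in each library, the other 10 had ratios of pup 2 over pup 1 between 0.785 and 1.11. Opposite-strand counts made up 3.18% of all gene counts in pup 2 and 3.17% in pup 1. Mir142 held 5.52% of the opposite-strand counts in pup 2 and 2.44% in pup 1, the 4th largest locus in pup 2 and the 8th in pup 1. The ratio of Mir142 was 2.34 when scaled by the opposite-strand counts of all other loci, a scaling added after seeing the data.

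**Figure D3:**
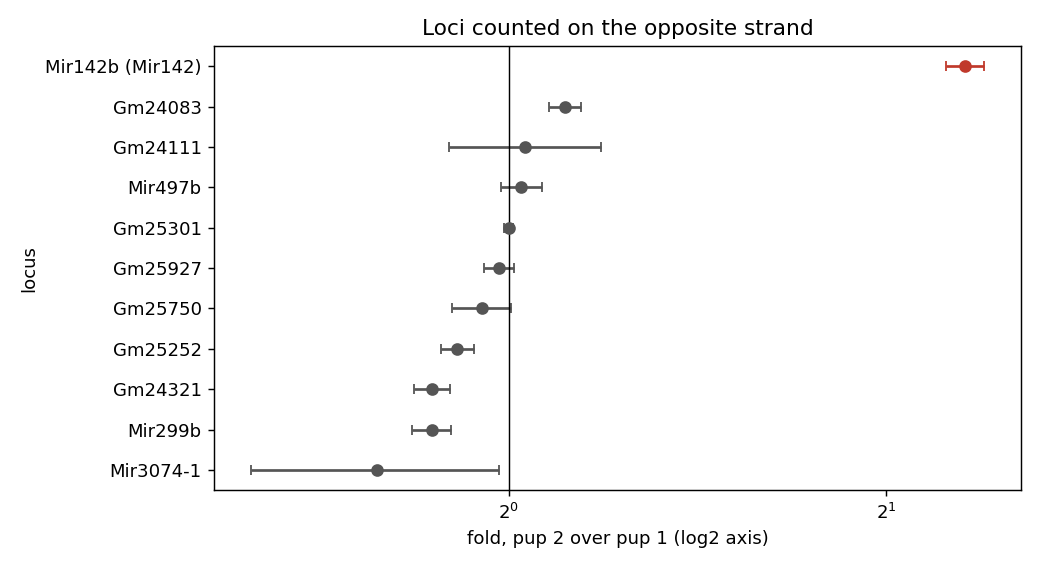
Ratio of pup 2 over pup 1 (log2 axis) of the 11 loci with at least 100 opposite-strand counts in each library, with exact 95% counting intervals. The locus that carries Mir142 (red) is at 2.31, and the other 10 (grey) are between 0.785 and 1.11.

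Summed, the 8 genes took 0.324% of sense-strand gene counts in pup 2, or 3242 CPM, and 0.133% in pup 1, or 1334 CPM. After TMM scaling, as for the pup ratios of lists below, the ratio of the sums was 2.47 (interval 2.41 to 2.54). Mir142 and Mir223 carried nearly all of it. Without them, the other 6 genes summed to 151.5 CPM in pup 2 against 138.3 CPM in pup 1, a ratio of 1.11 (interval 1.00 to 1.24). Without Mir223 alone the ratio was 2.13, so the difference of the sum rests on Mir142 as well.

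Shares within the set do not depend on the library totals. Mir142 made up 56.0% of the set in pup 2 and 59.9% in pup 1. Mir223 made up 39.3% in pup 2 and 29.7% in pup 1. For Mir155 the share was 2.18% in pup 2 and 5.80% in pup 1, and for Mir150 it was 0.984% in pup 2 and 2.18% in pup 1. Mir223 thus had the larger share in pup 2, and Mir142, Mir155 and Mir150 the larger share in pup 1, with intervals that do not overlap. A share is lower wherever other genes of the set are higher. After TMM scaling, Mir142 itself was 2.31-fold higher in pup 2, and the ratios of Mir155 and Mir150 had intervals that hold 1.

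The share of Mir146 was 0.729% in pup 2 and 1.45% in pup 1, again with intervals apart. Those of Mir511 and Mir147 overlapped between the pups, at 0.441% and 0.339% in pup 2 and 0.714% and 0.201% in pup 1. For each Mir142 count there were 0.701 Mir223 counts in pup 2 (interval 0.675 to 0.728) and 0.496 in pup 1 (0.474 to 0.518). For each Mir150 count there were 39.9 Mir223 counts in pup 2 and 13.6 in pup 1. By contrast, Mir155 counts per Mir150 count were 2.22 in pup 2 and 2.66 in pup 1, with overlapping intervals.

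**Figure D4:**
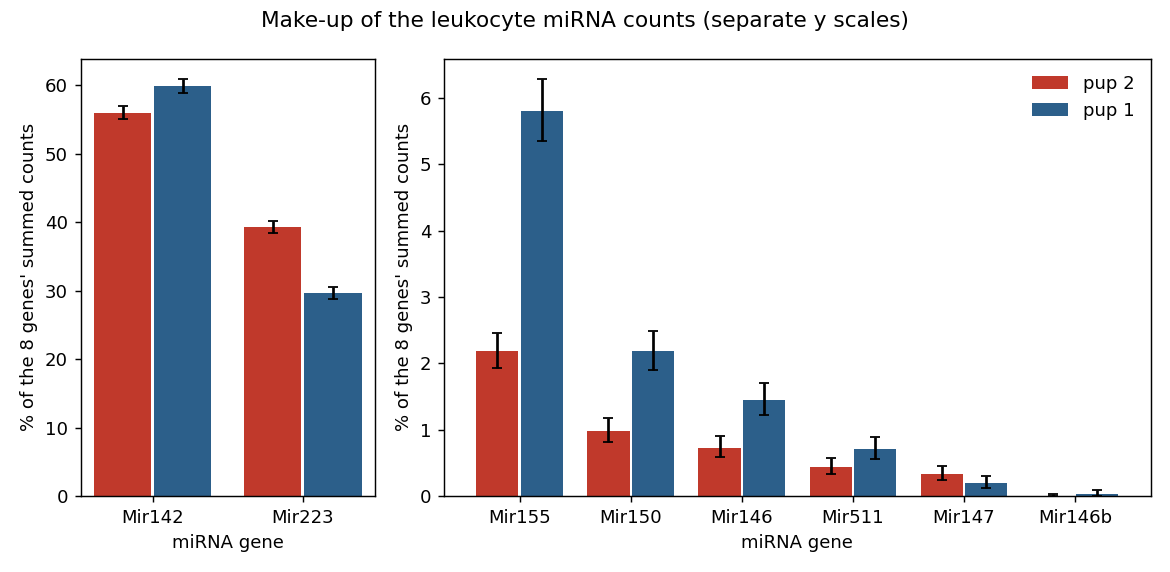
Share of each gene in the summed counts of the 8 genes, in percent, with pup 2 in red left of pup 1 in blue and exact 95% intervals; the panels have separate scales. Mir223 holds 39.3% in pup 2 and 29.7% in pup 1, and Mir155 2.18% in pup 2 and 5.80% in pup 1.

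Of the lists of other cell types, some were higher in pup 2 as well and others were not, and their part in the result was not tested. The red cell genes Mir144, Mir451a and Mir486, all 3 detected, summed to 980.3 CPM in pup 2 against 698.5 CPM in pup 1, a ratio of 1.43 (interval 1.37 to 1.49). Mir451a had 452.3 CPM in pup 2 against 357.1 CPM in pup 1, and Mir144 had 471.0 CPM in pup 2 against 288.3 CPM in pup 1. Mir486 had 56.9 CPM in pup 2 against 53.1 CPM in pup 1. The red cell ratio was above 1 but below that of Mir142 and of Mir223. Mir126a, of endothelium and platelets, had a ratio of 1.00 (19646 CPM in pup 2 against 19915 CPM in pup 1).

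The smooth muscle list had a ratio of 1.01, the epithelium list 0.992, and the fibroblast and mesenchyme list (Mir214, Mir152 and the Mir199 genes) 0.954. The sums of these lists thus differed by under 5% between the libraries. The small sums of miRNAs of other organs differed more. Mir375, of endocrine cells, had 72.3 CPM in pup 2 against 24.4 CPM in pup 1. Mir122, of liver, had 31.6 CPM in pup 2 against 111.8 CPM in pup 1. The 4 gut and kidney genes, led by Mir192, summed to 145.7 CPM in pup 2 against 104.7 CPM in pup 1. Mir375 and the gut and kidney genes were higher in pup 2, like the leukocyte miRNAs, and Mir122 was lower.

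**Figure D5:**
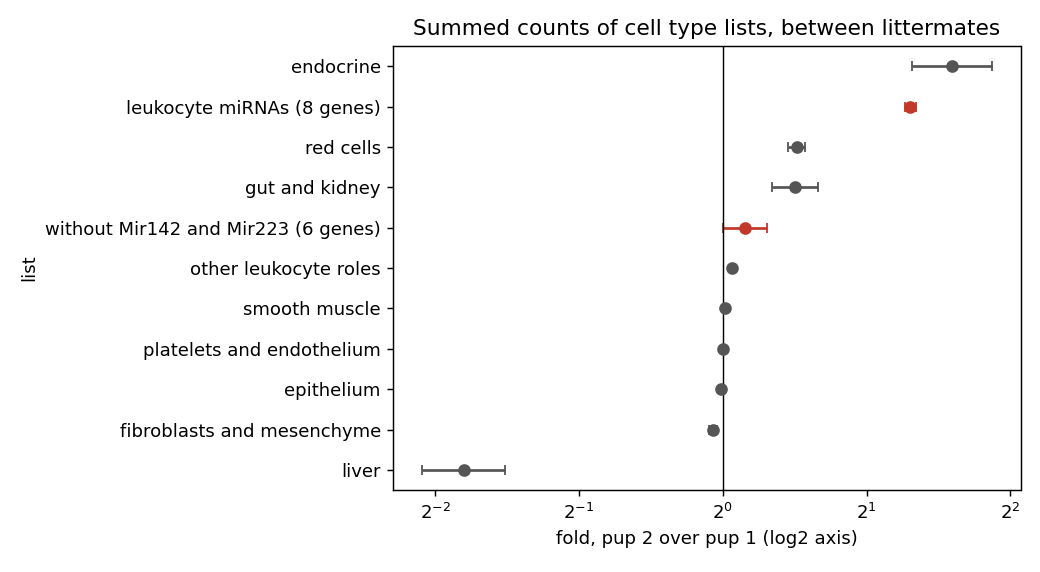
Ratio of summed counts, pup 2 over pup 1 (log2 axis), for the 8 leukocyte miRNAs and for 6 of them without Mir142 and Mir223 (red) and for 9 other lists (grey), with exact 95% counting intervals. The 8 genes are at 2.47, the 6 at 1.11, red cells at 1.43, and the muscle, epithelium, endothelium and fibroblast lists near 1. The endocrine list is at 3.01, gut and kidney at 1.42, other leukocyte roles at 1.05 and liver at 0.288.

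A further list held 19 miRNA genes with known roles in leukocytes that are mostly expressed in other cells too. Of these 18 have a row, and all 18 were detected and tested. None was at least 2-fold higher in pup 2, and 1 was 2-fold lower, Mir181b-1, from 4 counts in pup 2 and 21 in pup 1. Their median log2 ratio was 0.05, against 0.04 for all genes. Mir21a, abundant in many tissues, led the list at 31783 CPM in pup 2 against 30637 CPM in pup 1, followed by Mir99b (6426 CPM in pup 2 against 6883 CPM in pup 1) and Mir10a (5976 CPM in pup 2 against 5326 CPM in pup 1). Mir326 had the highest log2 ratio of the list, 0.95, from 48 counts in pup 2 and 52 in pup 1.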

How the data were processed

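For each library the authors deposited raw counts per miRNA gene, made on assembly mm10 with GENCODE M4 per the labels and the text that came with the tables. Aligner, counter and settings: not given in the sources used here. With no header in either table, the columns were read from their values. The first count column equals the sum of the other 2 for every gene, and the second holds nearly all counts, so it was taken for the sense strand, with the third column for the opposite one. Reads not assigned to a sense-strand gene, 35.2% of reads in pup 2 and 34.1% in pup 1, stayed out of the library sizes. Most of these had several mapping places (24.8% of reads in pup 2, 22.7% in pup 1).

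Symbols and positions come from GENCODE M21 (GRCm38, the same assembly as mm10), joined on Ensembl gene IDs, of which 1894 of 1973 matched. Sequences are from RefSeq (GRCm38.p6). Ratios used TMM factors from edgeR 4.0.16 in R 4.3.3, with exact conditional binomial intervals, over genes with at least 10 summed counts. The interval code was run on simulated counts of independent reads with known library sizes. This checks the code alone, and neither the TMM scaling nor reads that are not independent. Intervals of levels and shares are Clopper-Pearson. DESeq2 1.42.0 gave alternative size factors, and Python 3.11.15 with scipy 1.17.1 did the rest. The genes, lists and alternatives were chosen with earlier results of these data known. The text names all 8 genes, up to 3 genes of each other list by mean CPM, and neighbours in level or ratio; Mir326, Mir181b-1, Mir16-1, Mir93 and Mir499 were named after their values were seen.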

Additional observations from a re-analysis of the deposited data

How the results depend on the processing

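Under total count scaling, DESeq2 size factors, counts of both strands, Mir143 left out before scaling and a prior count of 2, the log2 ratio of each of the 7 genes tested kept its sign and stayed within its counting interval. The count of 3 genes at least 2-fold apart was 3 under the first 4 of these settings. It was 2 of 6 with a minimum of 100 counts, where Mir147 was not tested, and 4 of 8 with no minimum, where Mir146b was added with 0 counts in pup 2 and 3 in pup 1. Over all genes that count was 31 of 363, 29 of 372 in counts of both strands, and 31 of 362 with Mir143 left out, but 5 of 249 at a minimum of 100 counts and 243 of 669 with no minimum. Call rules that use p-values are not given, since 1 library per pup tests no difference between animals and the genes were chosen with this contrast known. The summed level, 2288 CPM on average, was 4807 CPM with Mir143 left out of the totals, and 1334 to 3242 CPM when each pup was left out. The share of Mir142 was 58.0% on average and 88.8% with Mir223 left out of the sum. Samples could not be paired across groups because there is 1 group of 2 pups. Genes were compared within each library by shares and count ratios. Depth limits Mir147 and Mir146b most.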
